A study of Mus musculus with 16 samples.

Results

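The immediate early genes described here are Fos, Fosb, Junb, Egr1, Egr3, Npas4, Nr4a1, Ier2, Dusp1 and Arc. They were taken by name as a list of 10 among the 54532 genes of a table of uninjected mouse retinas, and by gene identifier among the 48440 genes of a table of injected mouse retinas. All 10 were found in both. RNA-seq measured messenger RNA from whole retinas of C57BL6/J mice. The uninjected groups were wildtype retinas at 18 months (n = 4), Elovl2 mutant retinas at 12 months (n = 3) and wildtype retinas at 12 months (n = 3). Elovl2 elongates long polyunsaturated fatty acids, and its mutation is written C234W in the series design but C34W in the genotype labels, which do not give zygosity. The injected groups were wildtype 18-month retinas taken 5 days after 0.36 nmol of the fatty acid 24:5 (24 carbons, 5 double bonds) was injected into the vitreous (n = 3), and retinas of fellow eyes injected with vehicle (n = 3). Every injected eye, vehicle eyes included, had thus been entered by a needle. Neither the pairing of eyes within an animal nor the number of animals behind the libraries is in the labels. The p-values thus cover library-to-library spread, part of which may be technical.

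Immediate early genes are switched on within minutes of a stimulus, before any new protein is made. Neuronal firing, growth factors, injury and stress activate calcium and MAP kinase signalling, which acts through the transcription factors CREB, SRF and its ELK partners, and MEF2. The first transcripts are short-lived, and many of their products are transcription factors that act on later genes, while others shut the signal off. In the retina they respond to light, injury and neuronal activity, in neurons as well as in Mueller glia. In a whole retina fewer cells of a type and less RNA per cell cannot be told apart.

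Promoter sequences are shown because CREB sites are a textbook feature of such genes. Whether these sites have a part in the library patterns described further on was not tested. RefSeq promoters (GRCm38.p6) were at hand for 6 of the 10 members, Fos, Fosb, Junb, Dusp1, Nr4a1 and Npas4. The 250 bases before the RefSeq start of each gene were searched on both strands. The motifs were the CREB recognition core TGACG and the full cyclic AMP response element TGACGTCA (which holds 2 overlapping cores). The AP-1 site TGANTCA, the SRF-binding CArG box and the TATA box TATAAA were sought too. Below, capitals mark the CREB core on either strand. The windows are chr12:85473640-85473889 on the plus strand for Fos, chr8:84978749-84978998 on the minus strand for Junb, chr17:26508473-26508722 on the minus strand for Dusp1, chr15:101266596-101266845 on the plus strand for Nr4a1 and chr19:4989972-4990221 on the minus strand for Npas4.
Fos: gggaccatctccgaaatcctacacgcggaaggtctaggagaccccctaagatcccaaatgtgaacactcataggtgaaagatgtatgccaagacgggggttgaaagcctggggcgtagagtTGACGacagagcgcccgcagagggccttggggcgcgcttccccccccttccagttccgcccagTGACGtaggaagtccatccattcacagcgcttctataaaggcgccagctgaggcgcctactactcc
Junb: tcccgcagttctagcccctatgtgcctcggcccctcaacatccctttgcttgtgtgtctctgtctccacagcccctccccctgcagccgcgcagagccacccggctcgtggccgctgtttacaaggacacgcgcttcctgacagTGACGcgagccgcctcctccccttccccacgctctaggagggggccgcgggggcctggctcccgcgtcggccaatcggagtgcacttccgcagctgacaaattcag
Dusp1: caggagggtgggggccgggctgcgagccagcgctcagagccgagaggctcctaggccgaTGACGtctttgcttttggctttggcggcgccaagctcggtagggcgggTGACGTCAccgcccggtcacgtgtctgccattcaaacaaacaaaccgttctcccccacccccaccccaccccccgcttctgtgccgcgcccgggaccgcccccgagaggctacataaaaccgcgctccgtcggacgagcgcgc
Nr4a1: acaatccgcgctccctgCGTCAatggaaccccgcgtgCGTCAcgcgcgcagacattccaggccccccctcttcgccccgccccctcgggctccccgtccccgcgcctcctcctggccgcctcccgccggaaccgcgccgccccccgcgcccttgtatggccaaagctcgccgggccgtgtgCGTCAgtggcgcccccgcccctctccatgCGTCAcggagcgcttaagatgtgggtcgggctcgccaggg
Npas4: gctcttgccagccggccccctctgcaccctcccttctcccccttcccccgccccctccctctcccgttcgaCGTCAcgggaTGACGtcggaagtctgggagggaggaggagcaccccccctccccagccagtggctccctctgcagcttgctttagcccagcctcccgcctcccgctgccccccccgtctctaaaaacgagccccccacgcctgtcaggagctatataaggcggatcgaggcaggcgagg

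Each of the 6 windows held at least 1 core, and the core occurs in 17.8% of all 32851 promoter windows of that length. Fos held 2, which began 129 and 66 bases before the start, with a TATA box 33 bases before it. Junb and Fosb held 1 each, at 106 and 60 bases. Dusp1 held 3, of which 2 overlap in the full element TGACGTCA 143 bases before the start, an element found in 1.55% of all windows. Nr4a1 held 4 and Npas4 held 2. No AP-1 site (6.75% of all windows) or CArG box (1.47%) was matched in the 6, which says only that these letters are not in these windows, and a match is not evidence of binding. Fos was the only one of the 6 with TATAAA, which is in 12.4% of windows.

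The uninjected libraries gave back 12810558 to 30519417 reads each from their FPKM values (fragments per kilobase of gene, adjusted for sequencing depth). The injected ones held 22066668 to 25609242 counts, shown as CPM after TMM normalisation (depth-adjusted counts, with no gene length). These 2 scales were never tested against each other. Markers of rods, cones, bipolar, amacrine, horizontal and ganglion cells and Mueller glia were detected in every group. Libraries of each table were also divided across groups into a high and a low set by 1 marker gene, Irf9 or Malat1. The cut was the geometric mean of that gene's lowest and highest values, a rule that always yields 2 sets. Irf9, an interferon signalling factor, was at 21.9, 205 and 158 CPM in 24:5 replicates 1 to 3, against 61.4, 56.7 and 228 CPM in vehicle replicates 1 to 3. Malat1, a nuclear noncoding RNA, lay between 229 and 377 FPKM in 5 uninjected libraries (replicates 2 and 3 of the 18-month group, replicate 1 of the mutants, and replicates 1 and 2 of the 12-month wildtype), against 85.7 to 150 FPKM in the other 5.

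By the annotation of the FPKM table (mm10), Fos (ENSMUSG00000021250) spans chr12:85473890-85477273 on the plus strand, Junb (ENSMUSG00000052837) chr8:84974484-84978718 on the minus strand, Dusp1 (ENSMUSG00000024190) chr17:26505590-26508519 on the minus strand and Arc (ENSMUSG00000022602) chr15:74669083-74672570 on the minus strand. Ier2 lies on chromosome 8, Fosb on chromosome 7, Npas4 on chromosome 19, Egr3 on chromosome 14 and Nr4a1 on chromosome 15. The promoter windows above end at RefSeq starts, which can differ from the ends of these spans. The Nr4a1 window lies inside its span here (chr15:101254269-101274795), and the Dusp1 and Fosb windows overlap theirs. Per gene length, Ier2 kept its place among the members in uninjected retinas. This gene, which encodes a small nuclear protein, had the highest FPKM of the set in 10 of 10 libraries, and Dusp1 was second in 7. Fos, Junb, Dusp1 and Nr4a1 were close to each other, at group means of 5.74 to 9.59 FPKM, and exchanged places between libraries. Egr1 lay at rank 5 or 6 in each library. The others, Fosb, Npas4, Arc and Egr3, were low, with highest values of 1.09, 1.14, 0.788 and 0.461 FPKM, and did not keep a fixed order among themselves. In injected retinas, on CPM per kilobase, Fos was first in 4 of 6 libraries and Junb in the other 2. Ier2 lay at rank 3 to 5 there, and Egr3 was last in each. The tables were normalised separately, so this difference in order was not tested.

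**Figure D1:**
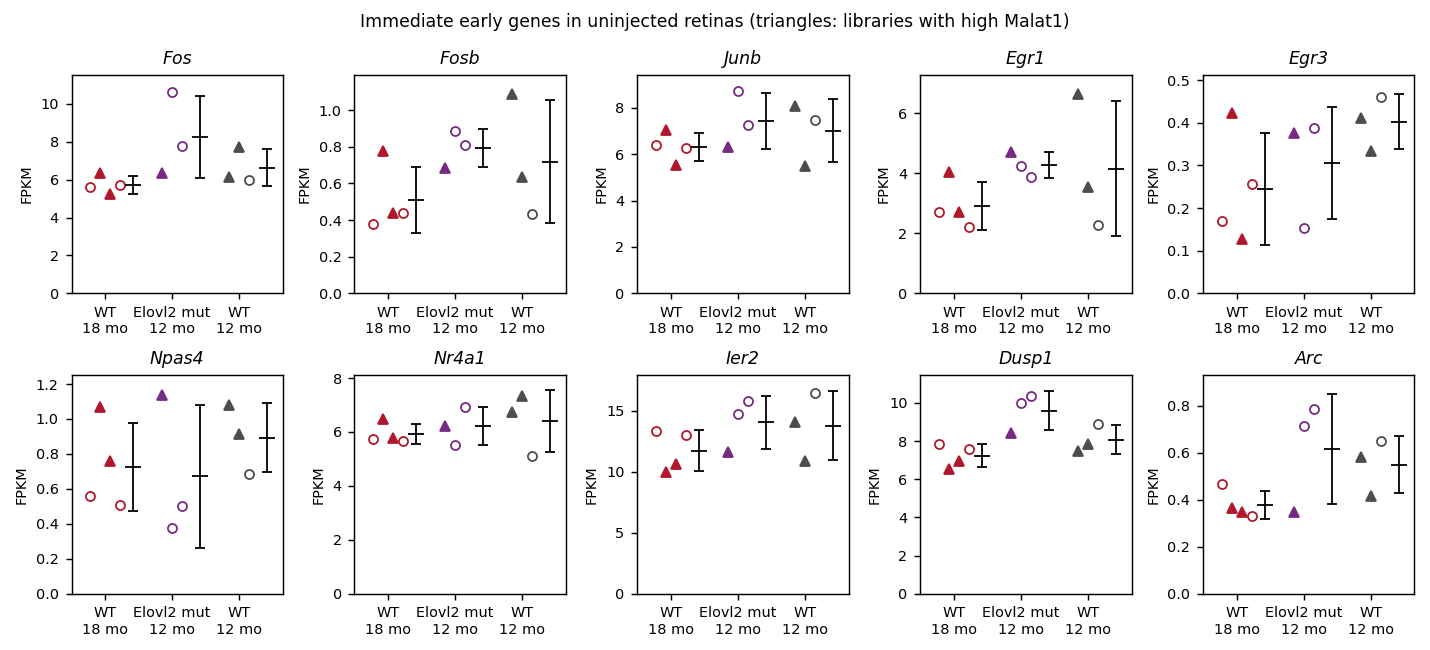
FPKM of the 10 genes in each uninjected library (wildtype 18 months, Elovl2 mutant 12 months, wildtype 12 months), with the mean and SD beside each group. Filled triangles are libraries with Malat1 at 229 FPKM or more and open circles the others. Groups overlap for each gene except Dusp1, which lies lower in each 18-month library than in each mutant.

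The AP-1 subunits come first. Fos, which dimerises with JUN proteins, was at 5.63, 6.38, 5.22 and 5.73 FPKM at 18 months (wildtype replicates 1 to 4), against 6.34, 10.6 and 7.79 FPKM in mutants (replicates 1 to 3) and 6.15, 7.75 and 5.99 FPKM in wildtype at 12 months (replicates 1 to 3). Mutant replicate 2 was the highest of the 10, and the 18-month range overlapped both 12-month groups. Fosb, a relative whose splice form ΔFosB is long-lived, was at 0.381, 0.777, 0.439 and 0.439 FPKM at 18 months, against 0.683, 0.884 and 0.812 FPKM in mutants and 1.09, 0.634 and 0.432 FPKM in wildtype at 12 months. Replicate 2 stood above the other 18-month libraries, and the 3 groups overlapped. Junb, a JUN partner of Fos, was at 6.41, 7.04, 5.55 and 6.27 FPKM at 18 months, against 6.33, 8.74 and 7.27 FPKM in mutants and 8.07, 5.47 and 7.49 FPKM in wildtype at 12 months. The 3 Junb groups overlapped.

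Among the zinc finger factors, Egr1, which binds GC-rich promoters of activity-regulated genes, was at 2.70, 4.03, 2.71 and 2.19 FPKM at 18 months, against 4.70, 4.25 and 3.86 FPKM in mutants and 6.63, 3.52 and 2.28 FPKM in wildtype at 12 months. Its 12-month wildtype libraries spanned nearly the whole range of the table. Egr3, a relative, was at 0.170, 0.423, 0.127 and 0.257 FPKM at 18 months, against 0.376, 0.154 and 0.388 FPKM in mutants and 0.412, 0.334 and 0.461 FPKM in wildtype at 12 months. These values rest on 9 to 54 recovered reads per library, and the groups overlapped. The neuronal factor Npas4, induced by calcium entry, was at 0.560, 1.07, 0.761 and 0.509 FPKM at 18 months, against 1.14, 0.376 and 0.503 FPKM in mutants and 1.08, 0.914 and 0.688 FPKM in wildtype at 12 months. It was the 1 of 10 members that followed Malat1, at 0.761 to 1.14 FPKM in the 5 libraries with high Malat1. In the other 5 it was at 0.376 to 0.688 FPKM. Of all tested genes, 12.6% did so in that direction, and 1 of 10 members is near that share. The tested genes had a mean of 1 FPKM or more, which leaves Npas4 out. The Npas4 range within each age and genotype overlapped the others. The orphan nuclear receptor Nr4a1 was at 5.73, 6.48, 5.77 and 5.67 FPKM at 18 months, against 6.22, 5.52 and 6.92 FPKM in mutants and 6.75, 7.32 and 5.12 FPKM in wildtype at 12 months. Its groups overlapped, and it varied least of the 6 tested members, with a 1.43-fold span over the 10 libraries.

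The other members are not classical transcription factors. Ier2 was at 13.3, 9.95, 10.6 and 13.0 FPKM at 18 months, against 11.6, 14.7 and 15.8 FPKM in mutants and 14.1, 10.8 and 16.4 FPKM in wildtype at 12 months. The 12-month wildtype range of Ier2 spanned most of the others. Dusp1, a phosphatase that inactivates MAP kinases and so ends the signal, was at 7.83, 6.55, 6.98 and 7.60 FPKM at 18 months, against 8.43, 10.02 and 10.3 FPKM in mutants and 7.48, 7.85 and 8.91 FPKM in wildtype at 12 months. All 18-month values of Dusp1 lay below all mutant values. Arc, a synaptic protein that regulates AMPA receptor removal, was at 0.467, 0.366, 0.347 and 0.331 FPKM at 18 months, against 0.349, 0.716 and 0.788 FPKM in mutants and 0.583, 0.415 and 0.650 FPKM in wildtype at 12 months. Mutant replicate 1 lay within the 18-month range of Arc, and the other mutants above it.

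Of the 10 members, 6 passed the filter of a mean of 1 FPKM and were tested (Fos, Junb, Egr1, Ier2, Dusp1 and Nr4a1). In wildtype retinas at 18 months over 12 months, limma on log2(FPKM + 1) called 0 of the 6 at an adjusted p of 0.05, as for 0% of all 13786 genes, and 0 had an unadjusted p under 0.05 (3.65% of all genes). No member had groups that did not overlap, which 4.17% of all tested genes had. The log2 fold changes of all 6 were below 0, as were 50.6% of all genes, with a median of -0.16 against -0.0014 for all genes. Of 13 marker lists, compared by their summed levels, 2 separated these groups. Here and below, a sum is weighted to the most abundant markers of a list, and single markers are not given. Rod markers (5 of 5 detected) summed to 10040 to 10710 FPKM at 18 months and 9574 to 10010 FPKM at 12 months, and lymphocyte markers (5 of 5 detected) to 0.146 to 0.265 FPKM at 18 months and 0.275 to 0.375 FPKM at 12 months. Their part in the differences was not tested. The lowest was Egr1, at 2.91 ± 0.784 FPKM at 18 months (SD, n = 4) and 4.14 ± 2.24 FPKM at 12 months (SD, n = 3), with a log2 fold change of -0.33 and a 95% interval of -0.89 to 0.23. That estimate rests on the 12-month replicate 1, since without this library it was 0.0012. Dusp1 averaged 7.24 ± 0.583 FPKM at 18 months (SD, n = 4) and 8.08 ± 0.742 FPKM at 12 months (SD, n = 3). Its interval, -0.34 to 0.063, was the narrowest of the 6. With no filter, all 10 members had a log2 fold change below 0 (median -0.17), and none was called. edgeR on the recovered reads tested all 10 and also called 0, with 0 at an unadjusted p under 0.05.

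In Elovl2 mutants over wildtype at 12 months, which shares its 12-month wildtype libraries with the age comparison, limma called 0 of 6 members and 0% of all genes, and no member had groups without overlap (5.97% of all tested genes). Log2 fold changes were above 0 for 5 of 6 (all genes, 47.7%), with a median of 0.10, and Nr4a1 was at -0.03. Without mutant replicate 2 the median was 0.063, and without wildtype replicate 1 it was 0.18. Of 13 marker lists, 2 lay higher in mutants without overlap. Rod markers (5 of 5 detected) summed to 10210 to 10910 FPKM in mutants and 9574 to 10010 FPKM in wildtype, and pericyte and fibroblast markers (6 of 6 detected) to 23.4 to 24.5 FPKM in mutants and 16.7 to 23.3 FPKM in wildtype. Their part in the differences was not tested. Dusp1 was the only member with an unadjusted p under 0.05 (2.19% of all genes), at 9.59 ± 1.02 FPKM in mutants (SD, n = 3) and 8.08 ± 0.742 FPKM in wildtype (SD, n = 3). That is a log2 difference of 0.22 (SE 0.0969, limma adjusted p = 0.9998), and the groups overlapped. Fos averaged 8.25 ± 2.18 FPKM in mutants, against 6.63 ± 0.973 FPKM in wildtype (SD, n = 3 each), with a log2 fold change of 0.26 and an interval of -0.089 to 0.61. Without mutant replicate 2 the Fos estimate was 0.081, and without mutant replicate 1 it was 0.41. edgeR on recovered reads called 0 of 10, with 0 at an unadjusted p under 0.05.

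Wildtype retinas at 18 months over mutants at 12 months had the largest median difference of the 3 uninjected comparisons, and limma called 0 of 6 members and 0% of all genes. Of the 6, 2 had an unadjusted p under 0.05, against 2.14% of all genes. Dusp1 averaged 7.24 ± 0.583 FPKM at 18 months (SD, n = 4) and 9.59 ± 1.02 FPKM in mutants (SD, n = 3), 1.28-fold lower on the log2(FPKM + 1) scale (log2 -0.36, SE 0.0906, limma adjusted p = 1.0). Its groups did not overlap, as for 2.37% of all tested genes in that direction. Over the alternatives its adjusted p lay between 0.295 and 1.0. Of 13 marker lists, 1 separated these groups, the lens list, which was near 0 throughout (5 of 6 detected, Crygb at 0), with sums of 0 to 0.0603 FPKM at 18 months and 0.112 to 0.576 FPKM in mutants. Its part in the Dusp1 difference was not tested. Fos averaged 5.74 ± 0.477 FPKM at 18 months (SD, n = 4) and 8.25 ± 2.18 FPKM in mutants (SD, n = 3), a log2 fold change of -0.43 with a 95% interval of -0.76 to -0.11. The limma adjusted p was 1.0, and the groups overlapped by mutant replicate 1. Without mutant replicate 2 the Fos estimate was -0.26. Log2 fold changes were below 0 for all 6 (all genes, 46.8%), with a median of -0.30 against 0.0064. Without a filter this held for 9 of 10 members, with Npas4 at 0.06. edgeR on recovered reads called 0 of 10, and 3 had an unadjusted p under 0.05. Beside Dusp1 and Fos the third was Arc, at 0.378 ± 0.0610 FPKM at 18 months (SD, n = 4) and 0.618 ± 0.236 FPKM in mutants (SD, n = 3) (log2 -0.72, SE 0.325, edgeR adjusted p = 0.9997). This comparison mixes age with genotype, which cannot be told apart here. It also shares libraries with both others.

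**Figure D2:**
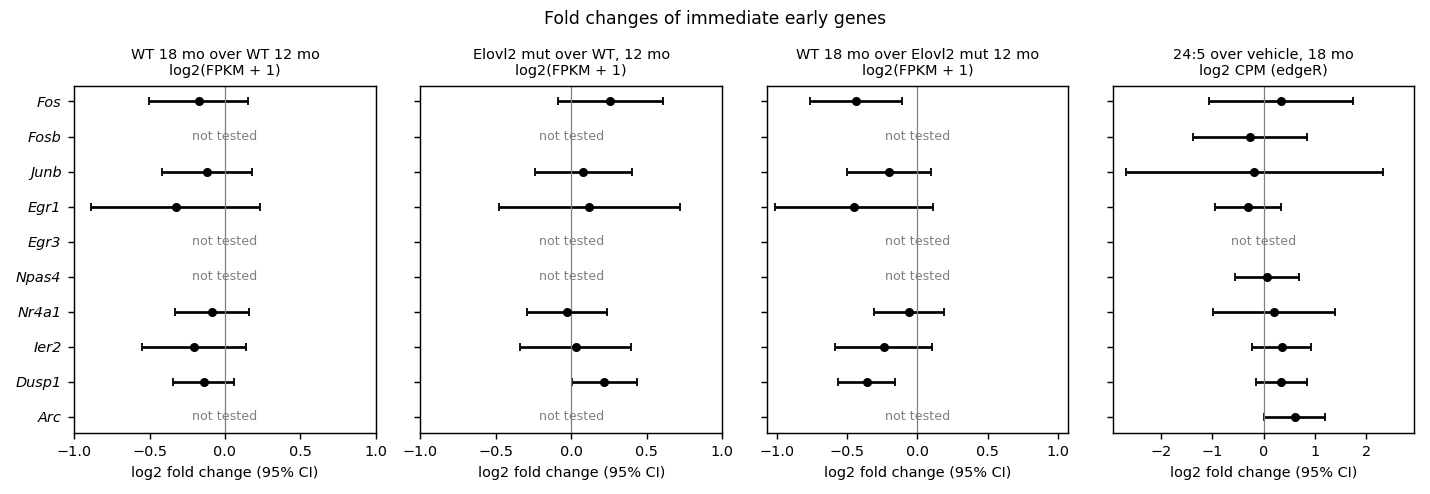
Log2 fold changes of the tested members with 95% intervals in the 4 comparisons, on log2(FPKM + 1) for uninjected and log2 CPM for injected retinas. The scale of the last panel is wider. Most intervals cross 0, and the widest belongs to Junb after injection.

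**Figure D3:**
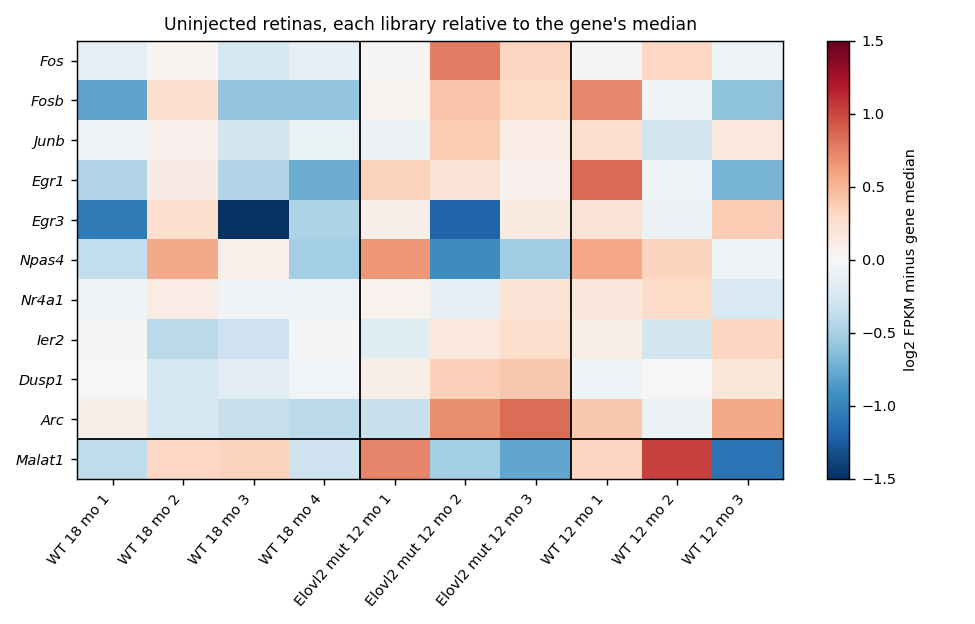
Log2 FPKM of each member and of Malat1 (bottom row) in the 10 uninjected libraries, relative to the gene's median over libraries. Mutant replicates 2 and 3 are above the median for most members, and within the 18-month group replicate 2 is the highest library for 7 of 10 members.

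In injected retinas the AP-1 genes spread widely between libraries of the same group. Junb was at 6.72, 49.1 and 42.4 CPM in 24:5 replicates 1 to 3, against 15.4, 18.5 and 77.3 CPM in vehicle replicates. The highest library was 11.5-fold above the lowest, and 99.7% of tested genes had a smaller SD on the log2 scale over the 6 libraries. Over the 10 uninjected libraries, in FPKM, the span of Junb was 1.60-fold, and spans were not tested between the separately processed tables. Egr1, Npas4 and Arc had the wider span in uninjected libraries, at 3.02, 3.02 and 2.38-fold. Their injected spans were 2.29, 1.73 and 2.145-fold, and the remaining members had the wider span in injected libraries. Fos was at 13.7, 47.3 and 49.7 CPM in 24:5 retinas, against 20.7, 26.1 and 40.9 CPM in vehicle retinas, a 3.62-fold span. Fosb was at 2.62, 7.62 and 7.94 CPM in 24:5 retinas, against 5.71, 5.52 and 10.7 CPM in vehicle retinas. In each of these AP-1 genes, 24:5 replicate 1 was the lowest library, and each group held high and low libraries.

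Nr4a1 was at 9.15, 24.7 and 25.5 CPM in 24:5 retinas, against 13.0, 13.0 and 25.4 CPM in vehicle retinas. Ier2 was at 5.41, 8.97 and 9.33 CPM in 24:5 retinas, against 5.32, 5.56 and 7.68 CPM in vehicle retinas. Dusp1 was at 12.0, 18.9 and 18.1 CPM in 24:5 retinas, against 10.1, 12.9 and 15.5 CPM in vehicle retinas. For each of these genes 24:5 replicates 2 and 3 and vehicle replicate 3 were the 3 highest libraries. Egr1 was at 5.29, 12.1 and 9.33 CPM in 24:5 retinas, against 9.94, 11.3 and 11.7 CPM in vehicle retinas. Npas4 was at 2.15, 3.17 and 2.33 CPM in 24:5 retinas, against 1.83, 2.55 and 2.93 CPM in vehicle retinas. Neither gene followed that order, and Npas4 varied least, by 1.73-fold over the 6 libraries. Egr3 was not tested, with 11, 8 and 2 counts in 24:5 replicates and 2, 3 and 2 counts in vehicle replicates.

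**Figure D4:**
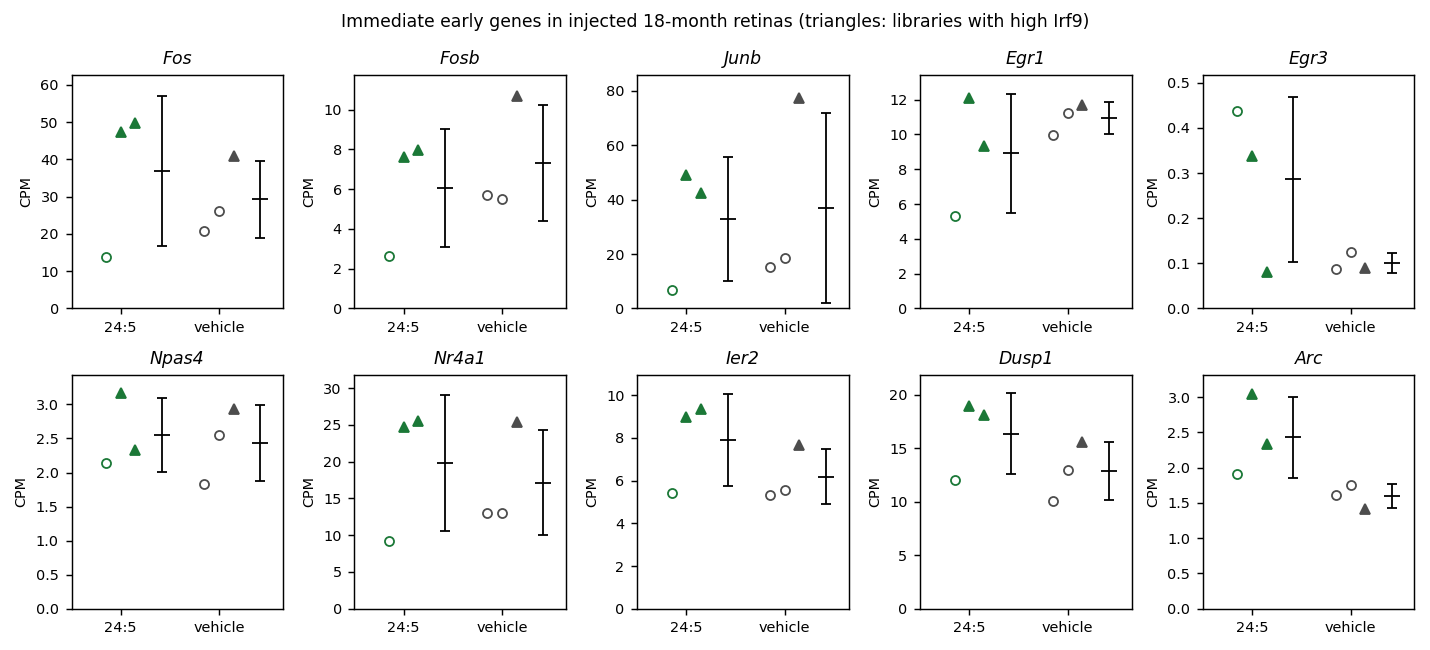
TMM-normalised CPM of the 10 genes in each 18-month library injected with 24:5 or vehicle, with the mean and SD beside each group. Filled triangles mark 24:5 replicates 2 and 3 and vehicle replicate 3, where Irf9 was at 158 CPM or more. These lie above the open circles for Fos, Fosb, Junb, Nr4a1, Ier2 and Dusp1.

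In 24:5 over vehicle retinas, edgeR called 0 of 9 tested members, against 0.0115% of all 17466 genes. The adjusted p-values of the members ran from 0.750 to 0.997, and DESeq2 called 0, with 0 at an unadjusted p under 0.05. No member was called when any 1 library was left out, here or in the uninjected comparisons. Log2 fold changes were above 0 for 6 of 9 (all genes, 50.8%), with a median of 0.21 against 0.0028. That median rested on single libraries, at 0.017 without 24:5 replicate 2 and 0.53 without vehicle replicate 3. Arc was the 1 member with an unadjusted p under 0.05 in edgeR, as were 6.61% of all genes. It was at 1.91, 3.05 and 2.33 CPM in 24:5 retinas, against 1.61, 1.76 and 1.42 CPM in vehicle retinas, from 32 to 72 counts per library. Each 24:5 library lay above each vehicle library, as for 4.82% of all tested genes in that direction, and the estimate was 1.52-fold higher (log2 0.60, SE 0.257, 95% interval 0.0066 to 1.20, edgeR adjusted p = 0.750). The adjusted p of Arc lay between 0.396 and 1.0 over the alternatives. Of 13 marker lists, 2 had summed levels that did not overlap between these groups. Ganglion cell markers (6 of 6 detected) summed to 827 to 919 CPM in 24:5 retinas and 736 to 808 CPM in vehicle retinas. Microglia markers (6 of 6 detected) summed to 57.2 to 111 CPM in 24:5 retinas and 119.5 to 201 CPM in vehicle retinas. Their part in the Arc difference was not tested.

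The direction of the Junb difference between 24:5 and vehicle retinas depended on which libraries and terms entered the fit. Junb averaged 32.7 ± 22.8 CPM in 24:5 retinas and 37.1 ± 34.9 CPM in vehicle retinas (SD, n = 3 each), with a log2 fold change of -0.18 and a 95% interval of -2.69 to 2.33. Without vehicle replicate 3 the log2 fold change was 0.95, and without 24:5 replicate 1 it was 0.29. With the libraries split by Irf9 as a term, a split taken from these same data, it was -0.98 and passed the threshold (edgeR adjusted p = 0.0177). Fos averaged 36.9 ± 20.1 CPM in 24:5 retinas and 29.2 ± 10.4 CPM in vehicle retinas (SD, n = 3 each), with a log2 fold change of 0.34 and an interval of -1.07 to 1.74. Leaving out 1 library moved the Fos estimate to between 0.061 (without 24:5 replicate 3) and 0.72 (without 24:5 replicate 1), and the Irf9 split turned it to -0.22. Junb overlaps Prdx2 on the plus strand at one end, and while the libraries mark strand, per the labels, the strand setting of the counting is not given. Prdx2, a peroxiredoxin, was at 237, 211 and 200 CPM in 24:5 replicates and 272, 212 and 251 CPM in vehicle replicates. In uninjected libraries Prdx2 ran from 53.3 to 89.1 FPKM, above Junb in each. Whether Prdx2 reads entered the Junb values was not tested. No other member overlaps a listed gene.

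The pattern that ran across treatment was the same for 6 members. In the 3 libraries with high Irf9 (24:5 replicates 2 and 3, vehicle replicate 3), Fos was at 40.9 to 49.7 CPM and Junb at 42.4 to 77.3 CPM. In the other 3, Fos was at 13.7 to 26.1 CPM and Junb at 6.72 to 18.5 CPM. Fosb, Nr4a1, Ier2 and Dusp1 separated the same libraries in the same direction, and Egr1, Egr3, Npas4 and Arc did not. Over all tested genes, 16.2% lay higher in those 3 libraries without overlap and 14.1% lower. These sets of libraries come from the data and hold both treatments, so they were compared by range, with no test. Of the 13 marker lists, 5 lay lower in the 3 high-Irf9 libraries and 1 lay higher. Lens markers (6 of 6 detected) summed to 43.1 to 107 CPM there and 536 to 1553 CPM in the other 3. Mueller glia markers (5 of 5 detected) summed to 2650 to 2700 CPM there and 3055 to 3548 CPM in the others. Bipolar markers (5 of 5 detected) summed to 781.5 to 834 CPM there and 844 to 863 CPM in the others, pericyte and fibroblast markers (6 of 6 detected) to 161 to 194 CPM there and 199 to 237 CPM in the others, and blood markers (5 of 5 detected) to 12.2 to 20.7 CPM there and 22.5 to 46.5 CPM in the others. The list that lay higher was that of amacrine and horizontal cells. Its markers (6 of 6 detected) summed to 449 to 463.5 CPM there and 357 to 445 CPM in the others. These sums do not show whether the single markers of a list moved alike. The part of these cells in the pattern was not tested.

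Many related genes separated the same libraries. Of 18 other immediate early transcription factors tested in injected retinas, 10 were higher in the 3 high-Irf9 libraries without overlap (16.2% of all tested genes) and 1, Klf4, was lower. Atf3, a stress-induced factor of injured neurons, was at 17.9, 58.5 and 62.1 CPM in 24:5 replicates 1 to 3, against 27.8, 27.5 and 81.1 CPM in vehicle replicates. Egr2 was at 0.398, 3.81 and 2.33 CPM in 24:5 retinas, against 1.44, 1.46 and 12.9 CPM in vehicle retinas. Of 25 signalling and feedback genes, 15 were higher without overlap and 0 lower. Socs3, the cytokine-induced inhibitor of JAK-STAT signalling, was at 4.97, 68.2 and 43.3 CPM in 24:5 retinas, against 27.8, 37.5 and 108 CPM in vehicle retinas. Gadd45b, a growth arrest and stress gene, was at 7.20, 51.5 and 45.9 CPM in 24:5 retinas, against 21.1, 18.4 and 53.3 CPM in vehicle retinas. In all 4 of these genes, which were named after their values were seen, 24:5 replicate 1 was the lowest library. Jun, Jund, Nr4a2 and Nr4a3 did not separate the libraries, and Nr4a2 was highest in 24:5 replicate 1, at 6.12 CPM. Of 15 delayed activity genes, 6 were higher and 1 lower. Of 26 upstream regulators, 10 were higher and 2 lower.

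**Figure D5:**
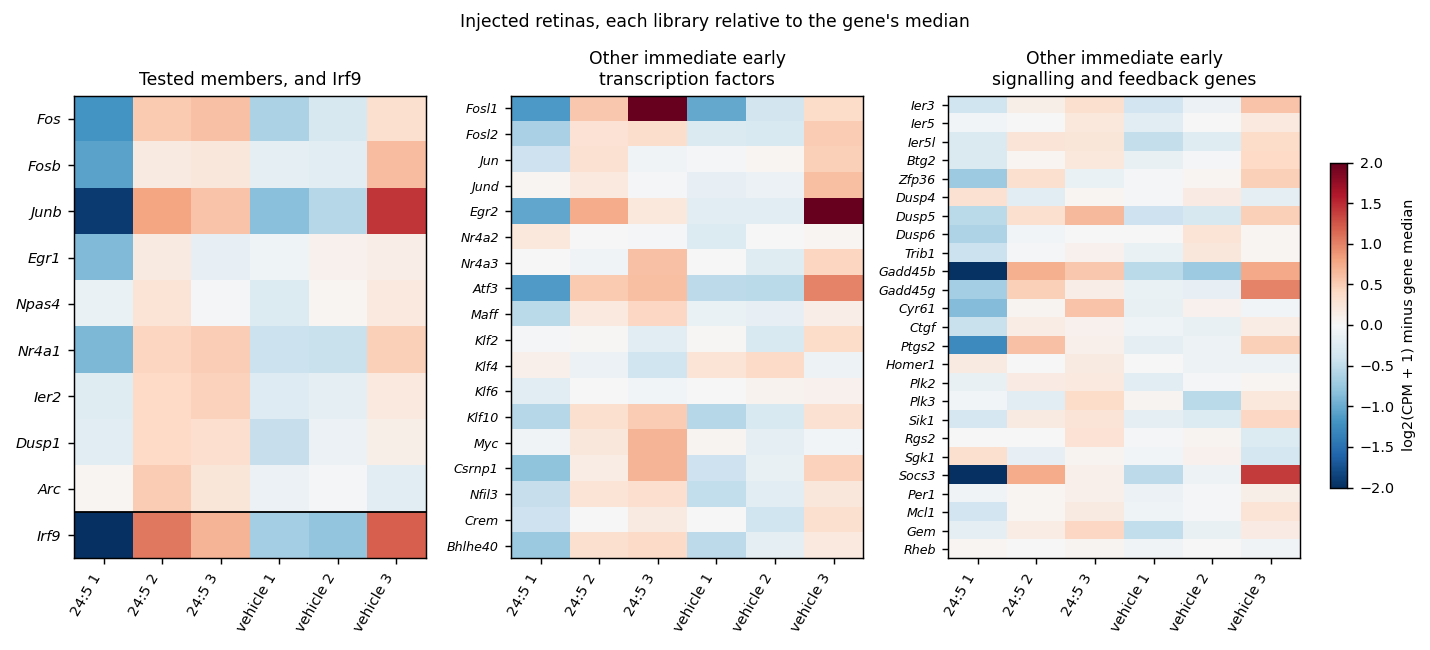
Log2(CPM + 1) in the 6 injected libraries, relative to each gene's median, for the 9 tested members with Irf9 (left), other immediate early transcription factors (middle) and signalling and feedback genes (right). The columns of 24:5 replicates 2 and 3 and vehicle replicate 3 are high for most members, and 24:5 replicate 1 is low.

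None of these other lists had a member called in any comparison, by limma or edgeR. The median log2 fold change of each list lay between -0.08 and 0.08 in each comparison, against -0.0060 to 0.0064 over all genes. For age, 2 of 11 transcription factors had an unadjusted p under 0.05, against 3.65% of all genes. Fosl1, another AP-1 subunit, averaged 3.59 ± 0.258 FPKM at 18 months (SD, n = 4) and 2.89 ± 0.220 FPKM at 12 months (SD, n = 3), a log2 fold change of 0.24. Nfil3, a basic leucine zipper repressor, averaged 7.20 ± 0.228 FPKM at 18 months (SD, n = 4) and 8.73 ± 0.757 FPKM at 12 months (SD, n = 3), a log2 fold change of -0.24. Of 23 signalling and feedback genes, 5 had an unadjusted p under 0.05 for age, against the same 3.65%. Ctgf, a matricellular protein, averaged 5.204 ± 0.269 FPKM at 18 months (SD, n = 4) and 8.36 ± 3.07 FPKM at 12 months (SD, n = 3). Its relative Cyr61 averaged 3.18 ± 0.534 FPKM at 18 months (SD, n = 4) and 2.10 ± 0.144 FPKM at 12 months (SD, n = 3). These 2 targets of YAP signalling had log2 fold changes of opposite sign, -0.54 for Ctgf and 0.42 for Cyr61. Btg2, an antiproliferative gene, averaged 27.9 ± 2.27 FPKM at 18 months (SD, n = 4) and 31.6 ± 0.705 FPKM at 12 months (SD, n = 3). Of 13 delayed activity genes, 2 had an unadjusted p under 0.05 for age, as had 1 of 26 upstream regulators. For 18 months over mutants, 2 of 23 signalling genes and 2 of 13 delayed genes had one, against 2.14% of all genes. In that comparison 0 of 11 transcription factors and 0 of 26 upstream regulators had one.

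In mutants over wildtype at 12 months, 1 of 23 signalling genes and 1 of 13 delayed genes had an unadjusted p under 0.05, against 2.19% of all genes. This held for 0 of 11 transcription factors and 0 of 26 upstream regulators. Cyr61 had the smallest p of the signalling list, at 4.002 ± 1.16 FPKM in mutants, against 2.10 ± 0.144 FPKM in wildtype (SD, n = 3 each), with a log2 fold change of 0.66 (limma adjusted p = 0.9998). Vgf, a neuropeptide precursor of the delayed list, averaged 23.6 ± 0.951 FPKM in mutants, against 19.8 ± 2.94 FPKM in wildtype (SD, n = 3 each). Vgf was at 19.7 ± 1.66 FPKM in wildtype at 18 months (SD, n = 4). Tac1, the substance P precursor, averaged 4.88 ± 0.679 FPKM at 18 months (SD, n = 4) and 7.13 ± 1.48 FPKM in wildtype at 12 months (SD, n = 3), with a log2 fold change of -0.46 (limma adjusted p = 0.9999). In 24:5 over vehicle retinas, 1 of 25 signalling genes and 2 of 26 upstream regulators had an unadjusted p under 0.05, against 6.61% of all genes. The other lists had 0 of 18 transcription factors and 0 of 15 delayed genes. The upstream kinase Rps6ka1 averaged 8.21 ± 0.633 CPM in 24:5 retinas and 11.7 ± 0.553 CPM in vehicle retinas (SD, n = 3 each). Its log2 fold change was -0.51 (edgeR adjusted p = 0.309). Homer1, a postsynaptic scaffold with an activity-induced short form, averaged 75.4 ± 5.64 CPM in 24:5 retinas and 66.4 ± 3.17 CPM in vehicle retinas (SD, n = 3 each), and these groups overlapped. Srf, which drives many immediate early promoters, was at 8.61 ± 0.178 FPKM at 18 months (SD, n = 4) and 9.36 ± 1.13 FPKM at 12 months (SD, n = 3).

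The genes whose library pattern was most like the mean of the tested members were picked by Pearson correlation, as a description of these libraries only. Over the 10 uninjected libraries they were Actb, Gm20632, Zfand1, Jup and Rtl8a, at 0.86 to 0.89. Actb, cytoskeletal beta-actin, was at 87.5 to 99.4 FPKM at 18 months, 106 to 114 FPKM in mutants and 95.01 to 114 FPKM in wildtype at 12 months. Over the 6 injected libraries they were Ctbp2, Mybbp1a, Cdh22, C2cd3 and Eif2ak4, at 0.992 to 0.997, and the libraries there fall into the 2 sets of 3 described above. Ctbp2, whose locus also gives the ribbon synapse protein RIBEYE, was at 206, 282 and 271 CPM in 24:5 retinas, against 224, 233.5 and 270.3 CPM in vehicle retinas. Among the 6 members tested in uninjected retinas, Nr4a1 was least like the mean of the others, and the untested members were not scored.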

How the data were processed

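Whole mouse retinas were profiled by RNA-seq. The authors deposited FPKM values per gene for 10 uninjected retinas, per the file headers, and raw read counts per gene for 6 injected retinas. The submitters' processing notes name DESeq2 1.42.0, featureCounts 2.0.6, HISAT2 2.2.1 and the mm10 build, without role or order. For the annotation release and strand setting nothing is given in the sources used here. FPKM times gene length was a whole multiple of 1 read's worth for 100% of values, within 0.02, which gave the reads per library back. The labels describe poly(A) selection. Replicates differed beyond counting noise, with chi-square per degree of freedom of 3.25 to 47.6.

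FPKM were tested with limma 3.58.1 (trend, robust) in R 4.3.3 on log2(FPKM + 1), which understates changes of low genes, over 13786 genes (mean FPKM 1 or more), all 3 groups in 1 fit. For the counts, edgeR 4.0.16 was run (TMM, filterByExpr, robust quasi-likelihood) over 17466 genes. Tests were two-sided, adjusted by Benjamini-Hochberg over all genes, with a threshold of 0.05. The procedure was tested on simulated counts of well-covered genes, with no library split built in. That does not show how it performs on these libraries. Alternatives were a pseudocount of 0.1, no filter, edgeR on recovered reads, DESeq2, other scaling, only the groups compared, a replicate block, a library split by Malat1 or Irf9, and leaving out each library.

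Members and gene lists were chosen with earlier results of these data known. Named genes were all members, the 3 genes of each list with the smallest p per comparison, the 5 genes most like the members, and Irf9 and Malat1. Genes named for the order of injected libraries, Atf3, Egr2, Socs3, Gadd45b and Klf4, were chosen after their values were seen. Not all genes that the rule names are described. Promoter windows came from RefSeq, GRCm38.p6.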

Additional observations from a re-analysis of the deposited data

Results flagged for a closer look

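Among the 10 members, checked in the 4 wildtype 18-month retinas (the only group of 4), 2 had 1 library far from the others by Dixon's criterion, which chance meets in about 1 in 20 groups. Fosb was at 0.777 FPKM in replicate 2, against 0.381 to 0.439 FPKM in the other 3 libraries. Nr4a1 was at 6.48 FPKM in replicate 2, against 5.67 to 5.77 FPKM in the other 3. Both values belong to the same library, which was the highest of the 4 for 7 of 10 members and one of the 2 at 18 months with high Malat1 (229 FPKM). No member was called in either comparison that uses this group, with replicate 2 or without it, so this does not measure its influence.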

How the results depend on the processing

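The number of members called stayed at 0 in every comparison and alternative, apart from 1 with the library split as a term in the 24:5 comparison. That member was Junb, at a log2 fold change of -0.98 (adjusted p = 0.0177), and the split comes from these same libraries and takes up residual variance. With the split, Fos was at -0.22, Nr4a1 at -0.24 and Npas4 at -0.062 for 24:5, Ier2 at -0.086 and Nr4a1 at 0.023 for genotype, each with the opposite sign to its reported value. The cause was not tested. Over all genes, age called 0 as reported, 4 with no filter, 1 with edgeR on recovered reads and 1 with the split. Genotype called 4 with no filter. The 18-month over mutant comparison called 1 with no filter, 2 with only the groups compared and 1 with the split. The 24:5 comparison called 2 as reported, 248 with DESeq2, 85 with no filter, 88 with the replicate block and 300 with the split. Leaving out 1 library gave 0 to 1 genes for age, 0 to 3 for 18 months over mutants (3 without wildtype 12-month replicate 1) and 0 to 105 for 24:5 (105 without vehicle replicate 3).

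Leaving out 1 library turned the sign of some estimates, none of them called. For age, Egr1 ran from -0.61 to 0.0012 and Nr4a1 from -0.22 to 0.0041. For genotype, Egr1 ran from -0.16 to 0.45, Ier2 from -0.12 to 0.16, Junb from -0.065 to 0.18 and Nr4a1 from -0.16 to 0.063. For 18 months over mutants, Nr4a1 ran from -0.13 to 0.0095. For 24:5, Fosb ran from -0.51 to 0.11, Junb from -0.60 to 0.95, Npas4 from -0.12 to 0.22 and Nr4a1 from -0.018 to 0.61.

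The replicate block called 0 members in each comparison. Same-numbered libraries correlated at -0.39 to 0.42 for age, -0.42 to 0.51 for genotype and -0.47 to -0.21 for 18 months over mutants. For 24:5 they correlated at -0.20 to 0.42. With groups this small, and libraries that split by Irf9 or Malat1, this cannot decide whether the numbers pair the samples. Depth limits Egr3 most, with 2 to 11 counts per injected library.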
